A study of Mus musculus with 7 samples.

Results

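Hox genes were described as a family in mouse embryonic fibroblasts (MEFs) and mouse embryonic stem cells (mESCs). The members were all rows of the gene count table whose symbol is Hox followed by a cluster letter from a to d and a paralog number, which gave 39 of the 55484 genes listed. No measured value entered this choice. RNA-seq counts of 4 MEF and 3 mESC libraries were available, and the libraries are called MEF-A to MEF-D and mESC-A to mESC-C in the order of the table. MEFs are connective tissue cells taken into culture from mouse embryos, and mESCs are cultured cells with the potency of the early embryo. The study's methods give the C57/Bl6 background for its MEFs and mESCs, in the section on chromatin accessibility libraries. They name no strain separately for the RNA libraries, which the study describes as data it already had. No other allele or treatment is named. The part of the embryo that gave the MEFs, its stage, and the passage of either culture are not given in the sources used here. The study's legends call the replicates of this data biological, with a number per cell type that does not match the MEF columns of the table. Whether the libraries came from separate animals or separate cultures is not stated, so the p-values measure the spread between these libraries, which may be technical. The extraction text attached to the labels describes blood stem cells of young and aged mice, which are neither labelled cell type.

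Hox genes encode homeodomain transcription factors and lie in 4 clusters in the mouse genome, Hoxa, Hoxb, Hoxc and Hoxd. Members of different clusters with the same number are paralogs, and in each cluster the low numbers lie at the 3′ end and the high numbers at the 5′ end. Genes at the 3′ end are activated earlier and reach further towards the head, and genes at the 5′ end are restricted to more caudal and, in the limb, more distal tissue, an order known as collinearity. Fibroblasts keep much of the Hox pattern of the body site they came from when they are cultured, which is known as positional identity. In pluripotent stem cells the clusters are known to carry Polycomb marks and to be largely silent. On GRCm38 (mm10), with GENCODE M21 gene positions, the Hoxa members span chr6:52155590-52260880, the Hoxb members chr11:96194316-96368256, the Hoxc members chr15:102921103-103036852 and the Hoxd members chr2:74668310-74765142.

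The libraries held from 6528643 to 11441278 counts on genes, and levels are given as CPM, the count in a total of 1000000. A floor of 3 counts in a library, the limit that a count of 0 allows, corresponded to between 0.262 and 0.460 CPM, and floors and intervals cover counting error only. Fibroblast markers were lower in mESCs for 12 of 12 listed genes, with summed levels of 23460 to 38497 CPM in MEFs and 426 to 468 CPM in mESCs, and pluripotency markers were higher in mESCs for 10 of 10, with 29.7 to 33.0 CPM in MEFs and 3741 to 3798 CPM in mESCs. The summed fibroblast markers in mESCs were 1.48% of their MEF level. Summed blood markers stood at 40.9 to 68.8 CPM in MEFs and 117 to 126 CPM in mESCs, and summed cartilage markers at 197 to 258 CPM and 6.83 to 10.99 CPM. Of 8 tested blood markers 3 were lower and 2 higher in mESCs, beside 25.0% and 22.8% of all tested genes, so the blood sum does not stand for each member. Summed neural markers were also higher in mESCs (147 to 186 CPM in MEFs, 730 to 813 CPM in mESCs). The same held for summed epithelial markers (108 to 129 CPM and 458 to 506 CPM). Of 6 tested neural markers 3 were higher and 1 lower in mESCs, and of 6 tested epithelial markers 2 were higher and 1 lower. These 2 sums also do not stand for each member. In bulk samples, fewer cells of a type and less RNA per cell cannot be told apart, and the part of minor cell types in the Hox levels was not tested.

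The MEF libraries expressed Hox genes of all 4 clusters, and mESCs held a much smaller amount. The 39 genes summed to 340, 362, 438 and 425 CPM in MEF-A to MEF-D and to 64.7, 48.3 and 42.9 CPM in mESC-A to mESC-C. The lowest MEF library was thus above the highest mESC library, and the mean level differed 7.53-fold (391 ± 47.7 CPM, SD, n = 4, and 51.9 ± 11.4 CPM, SD, n = 3). Above the floor were 29 to 34 Hox genes in a MEF library and 20 to 23 in an mESC library. Of the 39 genes, 27 were above the floor in every MEF library, and Hoxd13 alone was at or under it in all 4.

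By the quasi-likelihood test of edgeR, with p-values adjusted over all genes by Benjamini-Hochberg, 24 of the 39 Hox genes were lower in mESCs, 1 (Hoxc13) was higher, 2 did not pass the threshold of 0.05 and 12 had too few counts to be tested. Among all 16580 genes tested, 25.0% were lower and 22.8% were higher in mESCs. The filter kept 21 of the 27 tested Hox genes only with the help of MEF libraries, which favours genes that are high in MEFs, so the 24 calls are given as a description. The other 6, Hoxa7, Hoxa10, Hoxb2, Hoxb9, Hoxc13 and Hoxd8, had enough counts in the mESC libraries by themselves, and 5 of these were lower in mESCs and 1 higher. The median log2 fold change (mESC minus MEF) of the tested Hox genes was -3.83, and that of all tested genes was 0.04. Scaling by library size alone moved the median of all genes to 0.32 and the calls over all genes from 3785 higher and 4153 lower to 5180 higher and 3345 lower. Every MEF library lay above every mESC library in 22 of the 39 Hox genes, which was so for 6.79% of all genes in the table. Among tested genes this held for 21 of 27 Hox genes and 20.8% of all. Every mESC library lay above every MEF library in 2 of the 39 Hox genes, Hoxb13 and Hoxc13, of which only Hoxc13 was tested. That order held for 34.5% of all tested genes.

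**Figure D1:**
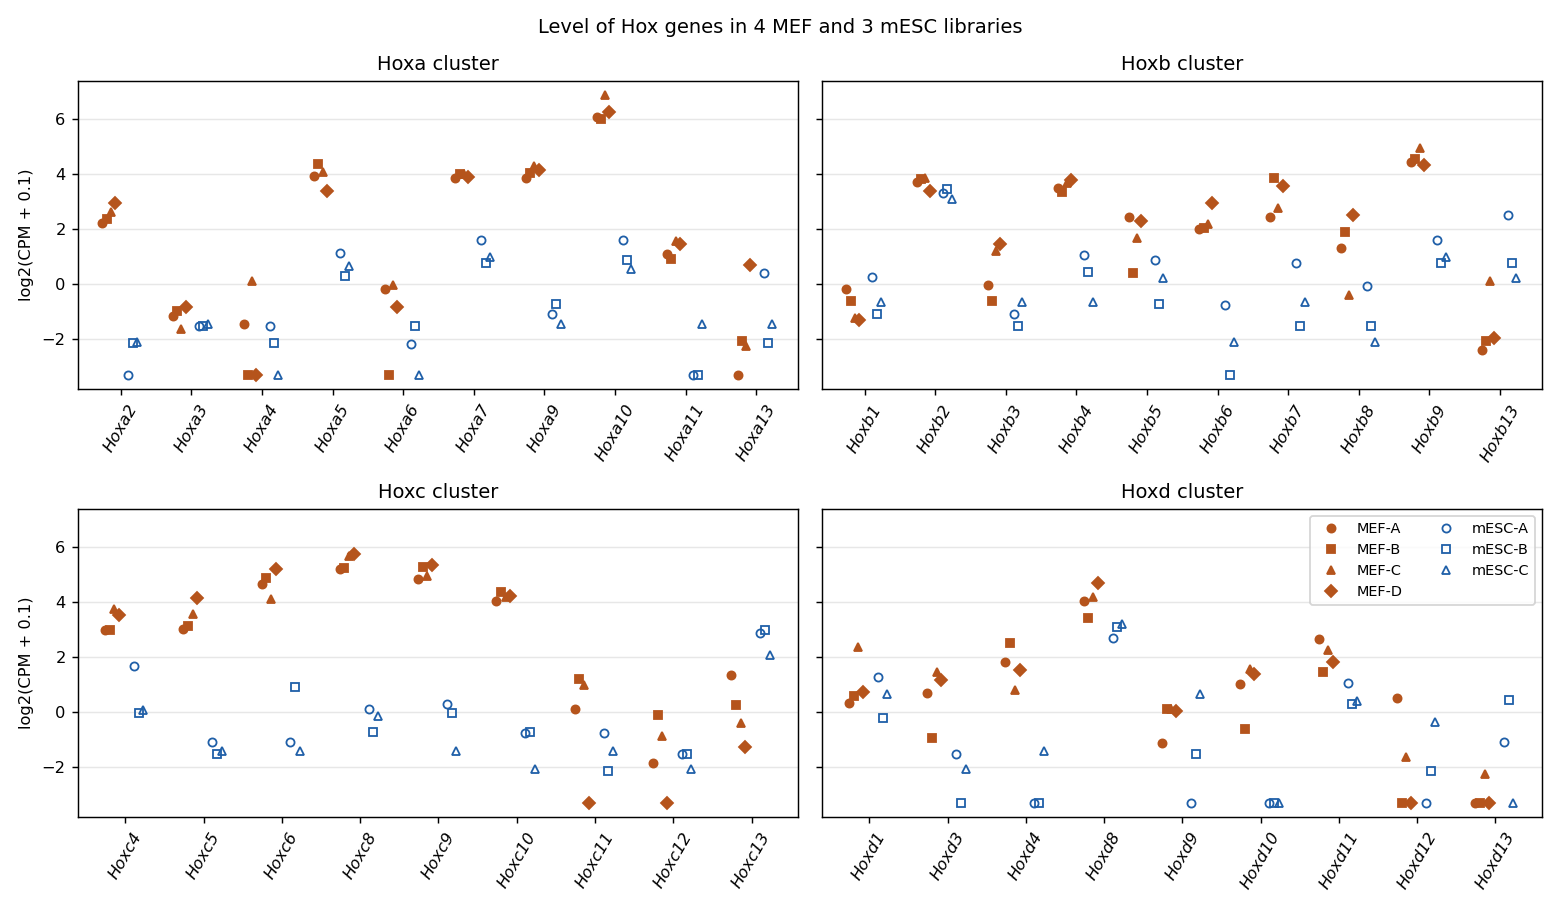
Level of 38 Hox genes as log2(CPM + 0.1), in 4 panels for the clusters with genes ordered by paralog number. Filled symbols are the 4 MEF libraries and open symbols the 3 mESC libraries. Hoxa10, Hoxc8, Hoxc9 and Hoxc6 lie highest in MEFs, and Hoxb13 and Hoxc13 lie higher in mESCs. Hoxb2 overlaps between the cell types, and Hoxd8 lies higher in MEFs without overlap.

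Hoxa and Hoxc held most of the Hox RNA of MEFs. Hoxa genes summed to 120, 124, 183 and 133 CPM in MEF-A to MEF-D (mean 140 ± 29.2, SD, n = 4) and Hoxc genes to 125, 144, 144 and 177 CPM (148 ± 21.8). Hoxb genes summed to 63.9, 71.8, 75.7 and 76.4 CPM (72.0 ± 5.76) and Hoxd genes to 31.8, 21.9, 35.9 and 38.8 CPM (32.1 ± 7.37). Hoxa and Hoxc overlapped between libraries, while both lay above Hoxb and Hoxb lay above Hoxd in each of the 4 libraries. In mESCs the order was different, with means of 8.74 ± 3.42 CPM for Hoxa, 19.4 ± 6.25 for Hoxb, 11.4 ± 3.79 for Hoxc and 12.5 ± 1.66 for Hoxd (SD, n = 3). Hoxb was highest in each mESC library. Hoxc lay above Hoxd in mESC-A and mESC-B and below it in mESC-C (7.10 and 14.3 CPM), so their order was not the same in all libraries. The level in MEFs was 16.0-fold that in mESCs for Hoxa, 12.95-fold for Hoxc, 3.72-fold for Hoxb and 2.58-fold for Hoxd. The calls lower in mESCs numbered 6 of 7 tested Hoxa, 7 of 7 Hoxb, 6 of 7 Hoxc and 5 of 6 Hoxd genes, beside 25.0% of all tested genes. The clusters hold 11, 10, 9 and 9 members, and most of the tested ones passed the filter only with the help of MEF libraries.

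Along the clusters, the paralog groups in the middle and just 5′ of it were highest in MEFs. Paralog group 10 (Hoxa10, Hoxc10, Hoxd10) had the highest sum, 101 ± 24.9 CPM (SD, n = 4), followed by group 9 with 75.7 ± 7.99 and group 8 with 64.7 ± 15.3. The lowest library of group 10, at 84.0 CPM, was above the highest of group 9, at 81.6 CPM, while groups 9 and 8 overlapped. The place of group 10 rested on Hoxa10, at 80.6 ± 24.5 CPM, since Hoxc10 at 18.1 ± 1.65 and Hoxd10 at 1.94 CPM together were below each of groups 4 to 9. Groups 4 to 7 each lay between 24.6 and 32.2 CPM, and group 2, which consists of Hoxa2 and Hoxb2, at 18.7 ± 1.29. Several other groups were low, with 3.57 CPM for group 3, 7.77 for group 11, 0.740 for group 12 and 1.94 for group 13. In mESCs no group stood out in this way, and the highest sums were 10.1 ± 4.54 CPM for group 13, 9.75 ± 1.25 for group 2 and 9.10 ± 0.937 for group 8 (SD, n = 3). The MEF sum was 42.4-fold the mESC sum for group 10, 28.7-fold for group 6 and 19.7-fold for group 9.

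As shares of the Hox counts in a library, which do not depend on the scaling between libraries, paralogs 1 to 4 took 13.34, 13.03, 14.23 and 12.97% in MEF-A to MEF-D and 34.0, 32.6 and 32.5% in mESC-A to mESC-C. Their 95% Wilson intervals ran from 11.8 to 15.3% over the MEF libraries and from 27.6 to 38.1% over the mESC libraries. Much of the higher share in mESCs lay in group 2, at 4.82% on average in MEFs and 19.2% in mESCs. In mESCs Hoxb2 held 9.66 of the 9.75 CPM of that group. Group 1 took 1.16 and 6.73%, group 3 took 0.886 and 1.51%, and group 4 took 6.53 and 5.60%. Paralogs 5 to 8 took 38.8, 39.6, 33.2 and 44.2% in MEFs and 27.5, 30.6 and 36.6% in mESCs, and the 2 cell types overlapped. Paralogs 9 to 13 took 47.9, 47.4, 52.6 and 42.9% in MEFs and 38.5, 36.8 and 30.9% in mESCs, without overlap. This difference depended on where the band begins, since paralogs 10 to 13 took 28.3% on average in MEFs and 27.9% in mESCs. Within the last band, group 13 made up 0.504% of the Hox counts on average in MEFs and 19.0% in mESCs.

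**Figure D2:**
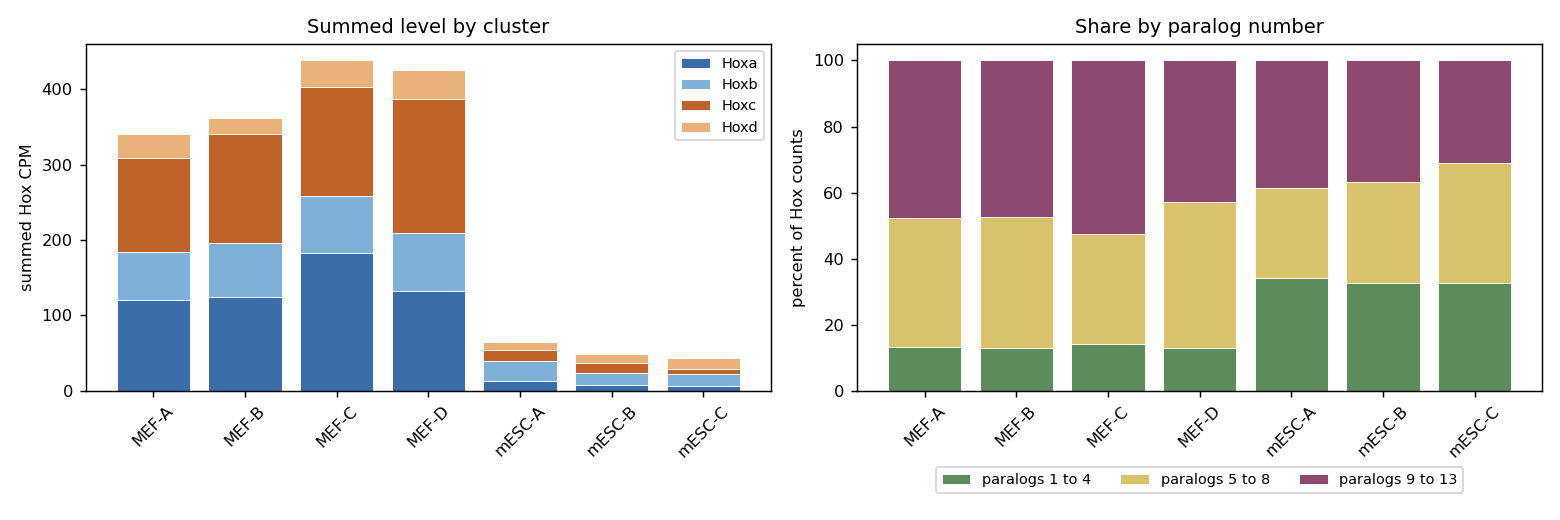
Left, summed CPM of the Hox genes in each library, stacked by cluster. Right, percent of the Hox counts of each library in paralogs 1 to 4, 5 to 8 and 9 to 13. MEF libraries sum to 340 to 438 CPM and mESC libraries to 42.9 to 64.7 CPM, and paralogs 1 to 4 take 12.97 to 14.23% in MEFs and 32.5 to 34.0% in mESCs.

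Levels of different genes were ordered by CPM per kb of annotated exon, because longer transcripts can collect more counts. In MEFs Hoxa10 came first with 24.7 ± 7.49 CPM per kb (SD, n = 4), followed by Hoxc8 with 15.6 ± 3.18, Hoxc9 with 14.1 ± 2.43, Hoxc6 with 11.1 ± 3.37, Hoxc10 with 9.48 ± 0.865, Hoxb9 with 9.20 ± 1.83, Hoxa5 with 8.31 ± 2.17, Hoxd8 with 6.35 ± 2.29, Hoxb7 with 6.17 ± 2.77 and Hoxa7 with 5.26 ± 0.312. From Hoxc8 on, each gene in this order differed from the next by less than the larger SD of the pair. The libraries were primed at the poly(A) tail and biased to the 3′ end, where length matters less, and 9 of these 10 genes were also among the first 10 by CPM. By CPM the 4 highest genes, Hoxa10, Hoxc8, Hoxc9 and Hoxc6, held 47.4% of all Hox counts of the pooled MEF libraries. The order in mESCs was led by Hoxd8 with 2.89 CPM per kb, Hoxb2 with 2.77, Hoxc13 with 2.56 and Hoxb13 with 1.25, and by CPM the 3 highest, Hoxb2, Hoxd8 and Hoxc13, held 45.8% of the pooled mESC Hox counts.

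Hoxa10, a gene of the posterior trunk, hindlimb and uterus, was the highest Hox gene of MEFs on either scale. It stood at 67.5, 63.2, 117 and 75.2 CPM in MEF-A to MEF-D and at 2.93, 1.74 and 1.34 CPM in mESC-A to mESC-C. All MEF libraries were far above all mESC libraries, MEF-C highest, with a log2 fold change of -5.59 (SE 0.354, adjusted p = 6.00e-07). Its neighbour Hoxa9, a trunk gene also known as a leukaemia oncogene, stood at 14.2, 16.1, 19.5 and 17.5 CPM in MEFs and at 3, 4 and 2 counts in mESCs, a log2 fold change of -5.69 (SE 0.379, adjusted p = 8.53e-07). Next along the cluster, Hoxa7 was the steadiest Hox gene among MEF libraries, with 14.2, 15.7, 16.0 and 14.6 CPM, and had 2.93, 1.61 and 1.88 CPM in mESCs (log2 fold change -3.09, SE 0.319, adjusted p = 1.96e-05). Hoxa7 shares 20.4% of its exon bases with the antisense RNA Hoxaas3, and the strand setting of the counting is not given in the sources used here. Hoxa5, which patterns the neck and upper thorax and the lung, stood at 15.03, 20.2, 16.7 and 10.4 CPM in MEFs and at 2.07, 1.12 and 1.47 CPM in mESCs (log2 fold change -3.60, SE 0.385, adjusted p = 2.55e-05).

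Towards the 3′ end of Hoxa, Hoxa2, which patterns the hindbrain and the second pharyngeal arch, had 37 to 56 counts in the MEF libraries and 0, 1 and 1 in the mESC libraries, a ratio of pooled levels of 67.1 with a 95% counting interval of 18.3 to 558 (adjusted p = 3.05e-05). Hoxa3, Hoxa4 and Hoxa6 had 0 to 9 counts in any MEF library and 0 to 2 in any mESC library, and were not tested. At the 5′ end, Hoxa11, needed for the forearm bones, had 13 to 26 counts in MEFs and 0, 0 and 2 in mESCs (ratio 27.2, counting interval 7.28 to 228, adjusted p = 0.00129), and 35.0% of its exon bases are shared with the antisense RNA Hoxa11os. Hoxa13, the most distal limb and hindgut gene of the cluster, had 0, 1, 1 and 10 counts in MEFs and 10, 1 and 2 in mESCs, so that MEF-D and mESC-A each stood above the rest of their cell type.

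Hoxc genes from Hoxc4 to Hoxc10 formed an unbroken run of expressed genes in MEFs. Hoxc8, which patterns the thorax and the neurons of the forelimb, stood at 36.3, 36.8, 50.7 and 53.3 CPM in MEFs and at 8, 4 and 6 counts in mESCs (log2 fold change -6.11, SE 0.314, adjusted p = 1.52e-07). Hoxc9, a gene of the thorax, stood at 28.1, 38.4, 30.7 and 40.3 CPM and at 9, 7 and 2 counts (log2 fold change -5.75, SE 0.384, adjusted p = 8.65e-07). Hoxc6, also a trunk gene, stood at 24.9, 28.6, 16.8 and 36.3 CPM and at 3, 14 and 2 counts (log2 fold change -5.30, SE 0.554, adjusted p = 2.18e-05). The MEF libraries were above all mESC libraries in the 3 genes, and in Hoxc6 the 14 counts of mESC-B stood apart from those of the other mESC libraries, and without mESC-B the log2 fold change was -6.60. Hoxc10, which is linked to the lumbar region and the hindlimb, stood at 16.3, 20.2, 17.7 and 18.2 CPM and at 4, 4 and 1 counts (log2 fold change -5.80, SE 0.411, adjusted p = 1.35e-06). Hoxc5 had 62 to 115 counts in MEFs and 2 to 3 in mESCs (log2 fold change -5.46, SE 0.498, adjusted p = 8.28e-06), and it shares 5.37% of its exon bases with Hoxc10 on the same strand. Hoxc4, at the 3′ end, stood at 7.69, 7.79, 13.3 and 11.2 CPM in MEFs and at 3.05, 0.869 and 0.938 CPM in mESCs, with mESC-A the highest of its cell type (log2 fold change -2.89, SE 0.502, adjusted p = 0.000775, and -3.72 without mESC-A).

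The 5′ end of Hoxc showed the opposite direction. Hoxc13, known for its part in hair and nail formation, had 28, 8, 6 and 2 counts in MEF-A to MEF-D and 59, 62 and 30 in mESC-A to mESC-C, or 2.45, 1.09, 0.654 and 0.306 CPM and 7.20, 7.69 and 4.02 CPM. Every mESC library lay above every MEF library, with a log2 fold change of 2.13 (SE 0.611, adjusted p = 0.0144). The call was lost without mESC-B (log2 fold change 1.95, adjusted p = 0.0542) and in a test against a fold change of 2 (adjusted p = 0.0681), and without MEF-A the log2 fold change was 2.88. Between Hoxc13 and Hoxc10 the counts were low in both cell types. Hoxc11 had 11, 16, 17 and 0 counts in MEFs and 4, 1 and 2 in mESCs, and Hoxc12 had 0 to 6 and 1 to 2. Neither was tested.

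In Hoxb the highest genes of MEFs by CPM per kb were Hoxb9, Hoxb7 and Hoxb4. Hoxb9, a gene of the thorax, stood at 21.3, 23.2, 30.4 and 19.8 CPM in MEFs and at 2.93, 1.61 and 1.88 CPM in mESCs (log2 fold change -3.74, SE 0.324, adjusted p = 5.62e-06). Hoxb7 stood at 5.33, 14.5, 6.65 and 11.6 CPM in MEFs and at 13, 2 and 4 counts in mESCs (log2 fold change -3.83, SE 0.631, adjusted p = 0.000543), with MEF-B and MEF-D above MEF-A and MEF-C. Without mESC-A its log2 fold change was -4.83. Hoxb4, known for its effect on blood stem cells, stood at 11.1, 10.1, 12.8 and 13.6 CPM in MEFs and at 16, 10 and 4 counts in mESCs (log2 fold change -3.51, SE 0.430, adjusted p = 6.84e-05). In each of the 3 genes the MEF libraries did not overlap with the mESC libraries. Hoxb6 had 29 to 50 counts in MEFs and 4, 0 and 1 in mESCs (log2 fold change -4.73, SE 0.753, adjusted p = 0.000429, and -6.20 without mESC-A).

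Among the tested Hoxb genes, Hoxb5 and Hoxb8 were the least even between MEF libraries. Hoxb5 had 61, 9, 28 and 31 counts in MEF-A to MEF-D and 14, 4 and 8 in mESCs, and Hoxb8 had 27, 26, 6 and 36 and 7, 2 and 1. A low MEF library, MEF-B in Hoxb5 and MEF-C in Hoxb8, reached into the mESC range in each. Hoxb5 was called lower in mESCs (log2 fold change -1.98, SE 0.632, adjusted p = 0.0239), but not without MEF-A (adjusted p = 0.0606), mESC-B (0.0835) or mESC-C (0.0678), nor against a fold change of 2 (0.105). Hoxb8 was called lower as well (log2 fold change -3.06, SE 0.857, adjusted p = 0.0129), though not without mESC-B (adjusted p = 0.0501), and its log2 fold change was -4.10 without mESC-A. It was tested in only 9 of 13 alternatives. Without MEF-A, MEF-B or MEF-D, or with at least 10 counts required in every library of a cell type, Hoxb8 did not pass the filter. Hoxb3 had 10, 4, 20 and 17 counts in MEFs and 3, 2 and 4 in mESCs, was not tested, and shares 52.9% of its exon bases with the antisense RNA Hoxb3os.

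Hoxb2, a hindbrain gene, was the highest Hox gene of mESCs by CPM and nearly as high there as in MEFs. It stood at 12.8, 13.9, 14.3 and 10.4 CPM in MEF-A to MEF-D and at 9.89, 10.8 and 8.31 CPM in mESC-A to mESC-C. MEF-D lay below mESC-B, so the cell types overlapped. The mESC level was 75.1% of the MEF level, compared with 1.48% for the summed fibroblast markers. Other Hox genes lay near the markers, with 1.47% for Hoxa2, 1.71% for Hoxc8 and 2.48% for Hoxa10. Whether fibroblast RNA in the mESC samples adds to any of these levels was not tested. The log2 fold change of Hoxb2, -0.70 (SE 0.262), was just past the threshold (adjusted p = 0.0482). Of 13 alternatives 10 lost the call, including scaling by library size alone (log2 fold change -0.41, adjusted p = 0.207). Of its exon bases, 27.3% are shared with Hoxb3os, which had 9 to 17 counts in MEFs and 7, 0 and 0 in mESCs.

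At the ends of Hoxb, Hoxb1 and Hoxb13 were not tested. Hoxb1, which patterns the fourth rhombomere of the hindbrain, had 9, 4, 3 and 2 counts in MEFs and 9, 3 and 4 in mESCs and overlapped. Hoxb13, a gene of the tail end and the prostate, had 1, 1, 9 and 1 counts in MEF-A to MEF-D and 46, 13 and 8 in mESC-A to mESC-C, or 5.61, 1.61 and 1.07 CPM in the latter. Each mESC library lay above each MEF library, although mESC-C at 1.07 CPM was close to MEF-C at 0.981 CPM. Without a filter beyond 1 count, Hoxb13 was called higher in mESCs with a log2 fold change of 2.63 (adjusted p = 0.00975), a fit in which 11.6% of 37943 genes were called higher.

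Hoxd was the cluster with the lowest sum in MEFs, and Hoxd8 was its highest gene. Hoxd8 stood at 16.0, 10.4, 17.8 and 25.6 CPM in MEFs and at 6.35, 8.31 and 9.11 CPM in mESCs, with no overlap and an mESC level of 45.5% of that in MEFs (log2 fold change -1.41, SE 0.318, adjusted p = 0.00398). A test against a fold change of 2 lost this call. Hoxd11, which acts with Hoxa11 on the forearm and wrist, had 71, 19, 43 and 22 counts in MEFs and 16, 9 and 9 in mESCs (log2 fold change -1.85, SE 0.490, adjusted p = 0.00971), and the fold change test lost its call too. Hoxd10, which acts in the limb and the lumbar motor neurons, had 22, 4, 26 and 16 counts in MEFs and was the only Hox gene at 0 in all 3 mESC libraries. Against the floor of 3 counts per library, its MEF level was at least 5.10-fold higher (adjusted p = 0.00152). Its flanking gene Hoxd9 had 4, 7, 9 and 6 counts in MEFs and 0, 2 and 11 in mESCs, so that mESC-C exceeded each MEF library in counts.

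At the 3′ end of the cluster, Hoxd4 had 39, 41, 15 and 18 counts in MEFs and 0, 0 and 2 in mESCs (ratio of pooled levels 38.9, counting interval 10.52 to 325, adjusted p = 0.000985). Hoxd3 had 17, 3, 24 and 14 counts and 2, 0 and 1 (ratio 13.3, counting interval 4.33 to 66.4, adjusted p = 0.00643). Both genes share exons with each other and with the antisense RNA Hoxd3os1, so their separate counts are uncertain. Hoxd1 had 13, 10, 46 and 10 counts in MEFs and 19, 6 and 11 in mESCs, and no difference was called (log2 fold change -0.87, SE 0.682, adjusted p = 0.328). Without MEF-C, the MEF libraries lay between 1.14 and 1.53 CPM and the mESC libraries between 0.745 and 2.32 CPM. At the 5′ end, Hoxd12 had 15, 0, 2 and 0 counts in MEFs and 0, 1 and 5 in mESCs. Hoxd13, the gene of the digits and genital tubercle, had 0, 0, 1 and 0 counts in MEFs and 3, 10 and 0 in mESCs, and without the filter it was not called (log2 fold change 3.41, adjusted p = 0.118).

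**Figure D3:**
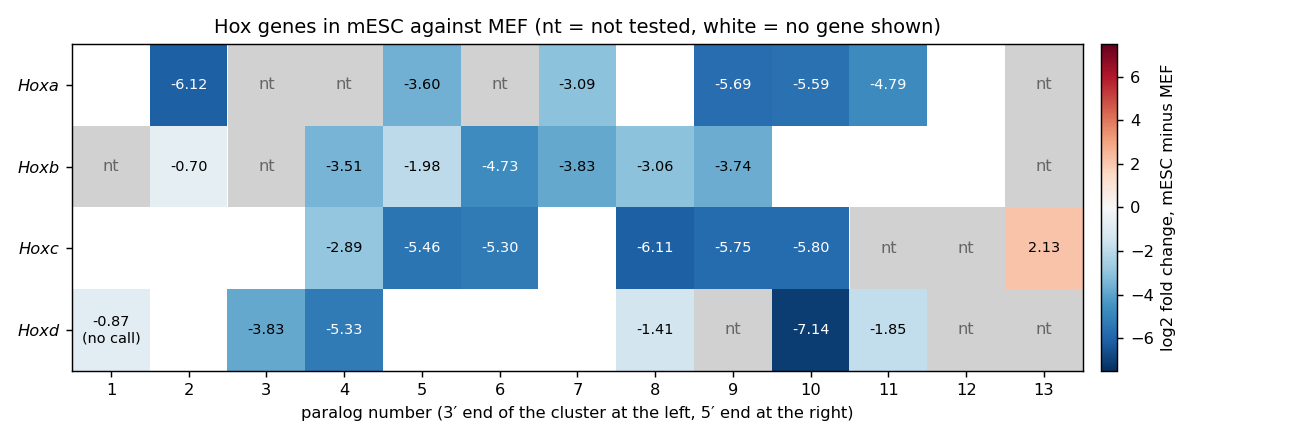
Log2 fold change (mESC minus MEF) of 38 Hox genes by cluster and paralog number, from the edgeR fit to 4 MEF and 3 mESC libraries. Grey cells are genes with too few counts to be tested, white cells have no gene shown, and for Hoxd10, at 0 counts in mESCs, the fitted value is no bound. Among the genes shown, Hoxc13 is the only tested gene higher in mESCs, and Hoxd1 was not called.

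Promoter sequences are shown for 3 genes that cover the range of patterns, Hoxa10 as the highest gene of MEFs, Hoxd10 as the gene at 0 counts in all mESC libraries and Hoxd8 as a gene found in both cell types. Each run holds 250 bases before the RefSeq start and 50 from it (GRCm38.p6), read 5′ to 3′ on the strand of the gene, with CG dinucleotides in capitals. The Hoxa10 window lies at chr6:52240805-52241104 on the minus strand, the Hoxd10 window at chr2:74691641-74691940 on the plus strand and the Hoxd8 window at chr2:74704365-74704664 on the plus strand.
Hoxa10: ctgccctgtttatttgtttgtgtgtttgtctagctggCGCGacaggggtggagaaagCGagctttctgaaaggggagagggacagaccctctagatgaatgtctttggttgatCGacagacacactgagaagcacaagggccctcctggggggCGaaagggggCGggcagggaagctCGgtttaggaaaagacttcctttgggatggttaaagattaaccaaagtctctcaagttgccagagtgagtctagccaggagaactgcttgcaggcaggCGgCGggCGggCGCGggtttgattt
Hoxd10: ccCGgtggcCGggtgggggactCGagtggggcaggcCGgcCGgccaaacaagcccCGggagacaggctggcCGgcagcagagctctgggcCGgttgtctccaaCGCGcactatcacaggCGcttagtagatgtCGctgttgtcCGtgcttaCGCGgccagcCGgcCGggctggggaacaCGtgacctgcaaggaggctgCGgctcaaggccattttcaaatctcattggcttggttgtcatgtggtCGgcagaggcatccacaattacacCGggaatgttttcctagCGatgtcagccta
Hoxd8: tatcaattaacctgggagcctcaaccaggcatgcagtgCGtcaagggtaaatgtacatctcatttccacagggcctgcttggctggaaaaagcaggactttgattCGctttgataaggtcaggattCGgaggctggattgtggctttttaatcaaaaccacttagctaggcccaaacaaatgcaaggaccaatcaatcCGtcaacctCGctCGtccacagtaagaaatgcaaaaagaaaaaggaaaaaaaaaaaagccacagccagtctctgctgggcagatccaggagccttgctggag
The windows held 12, 22 and 6 CG dinucleotides. Windows were found for 22 of the 39 Hox genes, and their median was 13.5 CG dinucleotides, with a range of 4 to 45, compared with a median of 7 over all 32851 windows of the same length. The highest counts belonged to Hoxa13 with 45 and Hoxd13 with 37, both of them under 1 CPM on average in both cell types, and the lowest to Hoxa9, Hoxd4 and Hoxd11 with 4 each. The letters TTTATG, a core recognised by caudal-type and posterior Hox proteins, occurred on either strand in 5 of the 22 Hox windows (22.7%) and 11.9% of all windows. Among the 5 were Hoxa7 and Hoxd4, whose RefSeq starts lie 3281 and 10049 bases from the GENCODE gene start. The letters TGATNNAT, a form bound by Hox proteins with Pbx, occurred in 3 Hox windows (13.6%) and 8.85% of all, and TATAAA in 3 (13.6%) and 13.6%. With 22 Hox windows, these shares rest on few genes. None of the 3 printed windows held any of these letters.

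Between MEF libraries the Hox genes varied about as much as other genes. Over the 21 Hox genes with a mean of at least 20 counts in MEFs, the median coefficient of variation of CPM was 0.274, with a range from 0.0595 for Hoxa7 to 0.677 for Hoxb8. The median over 10755 genes in the same range of mean counts was 0.249. Relative to counting error, the median chi-square per degree of freedom was 7.36 for the Hox genes and 7.23 for those genes. Hoxa7 differed between the libraries by less than counting noise, with 0.502, and Hoxa10 by the most, with 66.8. The highest library was over 3 times the lowest in 12 Hox genes with at least 10 counts in the highest, among them Hoxb8 (8.43 times), Hoxc13 (7.99), Hoxd3 (6.38), Hoxd10 (5.18), Hoxb3 (4.76), Hoxd1 (4.41), Hoxb5 (4.33) and Hoxd4 (3.43), and with 0 counts in a library Hoxa13, Hoxc11 and Hoxd12.

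The MEF libraries did not rank alike in all Hox genes. Of the 21 genes, MEF-D was highest in 9, Hoxa2, Hoxb4, Hoxb6, Hoxb8, Hoxc5, Hoxc6, Hoxc8, Hoxc9 and Hoxd8. MEF-C was highest in 6, Hoxa7, Hoxa9, Hoxa10, Hoxb2, Hoxb9 and Hoxc4. MEF-B was highest in 4 and MEF-A in 2. In MEF-C the Hoxa10 level was 1.85 times that of MEF-B while Hoxc6 was lowest, and in MEF-D Hoxc6 was 2.16 times that of MEF-C while Hoxa5 was lowest. By shares of Hox counts, paralogs 9 to 13 took 52.6% in MEF-C (95% Wilson interval 51.1 to 54.2%) and 42.9% in MEF-D (41.0 to 44.7%), and paralogs 5 to 8 took 33.2% (31.7 to 34.6%) and 44.2% (42.3 to 46.0%). Paralog group 4 took nearly the same share in all 4 libraries, 6.60, 6.50, 6.54 and 6.48%. Groups 12 and 13 together summed to 4.02 CPM in MEF-A and 2.19, 2.51 and 1.99 CPM in MEF-B to MEF-D, and Hotair, a noncoding RNA transcribed from the Hoxc cluster, had 18 counts in MEF-A, 3 in MEF-B and 0 in the others.

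**Figure D4:**
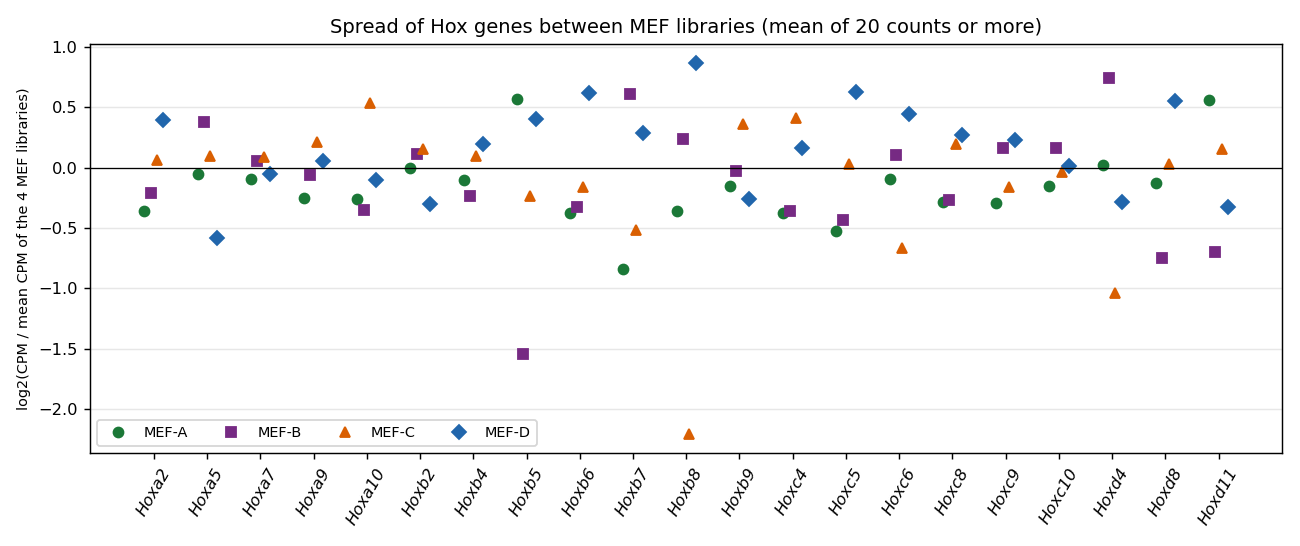
CPM of each MEF library relative to the mean of the 4 MEF libraries, as log2, for the 21 Hox genes with a mean of at least 20 counts. Points are libraries, and the line at 0 is the mean. Hoxa7 lies tight around the mean, MEF-C stands high in Hoxa10 and low in Hoxb8 and Hoxc6, and MEF-B stands low in Hoxb5.

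Other RNAs of the clusters are antisense or intergenic transcripts. Of 17 such RNAs in the table, 7 were tested, of which 4 were lower and 1 was higher in mESCs, beside 25.0% and 22.8% of all tested genes. The 1 higher was Halr1, a noncoding RNA transcribed near the Hoxa cluster, which had 5, 6, 8 and 2 counts in MEFs and 426, 463 and 448 in mESCs (log2 fold change 6.21, SE 0.314, adjusted p = 1.35e-07). At 56.5 ± 4.11 CPM (SD, n = 3), Halr1 was about as abundant in mESCs as the 39 Hox genes together. The 4 lower were Hoxd3os1, with 13 to 39 counts in MEFs and 0, 0 and 1 in mESCs (adjusted p = 0.000449), Hoxb5os, with 9 to 56 and 0, 0 and 2 (adjusted p = 0.00288), Hoxa11os, with 10 to 46 and 2 to 3 (log2 fold change -3.39, adjusted p = 0.00447), and Hoxb3os (log2 fold change -2.75, adjusted p = 0.0404). The count of 4 fell to between 0 and 2 when a MEF library was left out, since fewer of the 4 then passed the filter. Hotairm1 had 7 to 15 counts in MEFs and 3 to 7 in mESCs, Hoxaas2 and Hoxaas3 did not pass the threshold (adjusted p = 0.132 and 0.107), and the 6 microRNA entries had 0 to 6 counts in any library.

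Genes that flank the clusters moved in both directions. Of 19 tested among 23 in the table, 2 were lower and 7 were higher in mESCs, with a median log2 fold change of 0.27, beside 25.0% lower and 22.8% higher over all tested genes. The 2 lower were Mtx2 (log2 fold change -0.76, SE 0.144, adjusted p = 0.00127) and Lnpk (-1.08, SE 0.242, adjusted p = 0.00366), which lie on either side of Hoxd. The largest differences lay beyond Hoxb13 and at the far end of Hoxb. Calcoco2, an autophagy receptor gene 82.4 kb from Hoxb13, had 4, 3, 3 and 4 counts in MEFs and 466, 340 and 475 in mESCs (log2 fold change 6.71, SE 0.297, adjusted p = 5.44e-08). Ttll6, a tubulin-modifying enzyme gene 28.9 kb from Hoxb13, had 4, 1, 4 and 5 counts and 94, 35 and 65 (log2 fold change 3.98, SE 0.564, adjusted p = 0.000192). Skap1, a signalling adaptor gene, had 9, 11, 10 and 3 counts and 59, 48 and 25 (log2 fold change 2.21, SE 0.521, adjusted p = 0.00496). Evx1 and Evx2, homeobox genes next to Hoxa13 and Hoxd13, had 0 to 4 counts in every library.

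Hox proteins bind DNA together with TALE homeodomain cofactors of the Pbx, Meis and Pknox families. Of these 9 genes, 6 were lower and 1 was higher in mESCs, beside 25.0% and 22.8% of all tested genes, with a median log2 fold change of -1.91. Meis2 stood at 112 ± 28.7 CPM in MEFs (SD, n = 4) and 2.51 ± 1.30 CPM in mESCs (SD, n = 3; log2 fold change -5.73, SE 0.368, adjusted p = 6.58e-07). Meis3 fell by 5.36 and Meis1 by 4.08 on the log2 scale (adjusted p = 2.43e-06 and 1.69e-07). Pbx4 was the 1 higher, with a log2 fold change of 1.74 (SE 0.380, adjusted p = 0.00328).

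Among 22 known regulators of Hox clusters, which include Polycomb and trithorax subunits, demethylases and axis signals, 19 were tested, and 11 were higher and 4 lower in mESCs with a median log2 fold change of 0.74. Over all tested genes 22.8% were higher and 25.0% lower. Large differences were those of Gbx2, a homeobox gene of the early neural plate (log2 fold change 5.73, SE 0.481, adjusted p = 4.50e-06) and Cbx7, a Polycomb chromobox gene (4.42, SE 0.709, adjusted p = 0.000455).

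Other genes known to mark body position were counted in 3 lists, beside 25.0% lower and 22.8% higher in mESCs over all tested genes. The limb, head and trunk lists held 16, 12 and 17 genes, of which 15, 7 and 10 had enough counts to be tested. In the limb list 9 of 15 tested genes were lower in mESCs and 1 was higher, and Prrx1, a limb mesenchyme gene, stood at 668 ± 99.7 CPM in MEFs (log2 fold change -6.87, SE 0.198, adjusted p = 7.00e-09), with Tbx15 (-6.60) and Shox2 (-5.58) next. In the head list 5 of 7 were lower and 1 was higher, with Alx4 (-6.83) and Dlx2 (-4.35) lower and Otx2 (4.07), a gene that stem cells also express, higher. In the trunk list 8 of 10 were lower and 0 higher at the adjusted p of 0.05 by edgeR, with Osr1 (-6.78), Emx2 (-5.64) and Meox1 (-5.31) showing the largest differences. Many of these genes, Prrx1 among them, are expressed in mesenchyme of more than 1 body region. Some tested genes, Tbx15 and Shox2 among them, passed the filter only with the help of MEF libraries, which favours genes that are high in MEFs. The calls in these lists are therefore given as a description.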

How the data were processed

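The data were RNA-seq gene counts of 4 MEF and 3 mESC libraries, 3′-biased with molecular identifiers added at poly(A) priming. The authors mapped reads on mm10 using STAR (2.4.2a in the submitters' processing notes, while the methods give another version), collapsed identifiers with Je and counted uniquely mapped exonic reads with featureCounts. The deposited values are raw counts per gene without normalization. Which annotation release was used and whether counting was stranded is not given in the sources used here, so genes with overlapping exons are uncertain. Columns were assigned to a cell type by name, not to a numbered sample, and 0 columns were left unused. Symbols in the form of dates filled 26 rows with 0.249% of all counts, which stayed in the totals. Of the symbols, 53362 of 55484 matched GENCODE M21, which gave positions and exon lengths.

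CPM are counts in a library total of 1000000. Calls are from edgeR 4.0.16 in R 4.3.3 (limma 3.58.1), after TMM scaling and filterByExpr (1.24 CPM in at least 3 libraries), by a quasi-likelihood fit with no covariates to the 7 libraries and Benjamini-Hochberg adjustment over 16580 genes. DESeq2 1.42.0 was an alternative. Other tables were made with Python 3.11.15, and the code was tested on simulated data. No pair of libraries of a cell type agreed within sampling noise (chi-square per degree of freedom 17.6 to 35.3). The members and gene lists were chosen with earlier results of these data known. Values in every library are given for the highest 3 genes of each cluster per kb, for genes higher in mESCs, for genes above 3 counts in any mESC library and for genes whose highest MEF library, with at least 10 counts, is over 3 times the lowest. Of each other list, the 3 largest changes past the threshold and RNAs that overlap a Hox gene are named, and other genes were named after their values were seen. Some genes that this rule covers are not reported here.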

Additional observations from a re-analysis of the deposited data

Results flagged for a closer look

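In 7 of 46 values of Hox genes and sums of them, 1 of the 4 MEF libraries stood apart from the other MEF libraries by Dixon's test. All 7 were values of single genes. For continuous values chance flags about 1 in 20, or 2.3 of 46. That rate cannot be applied to counts near 0, such as the 0, 0, 1 and 0 of Hoxd13, so the 7 are not read as an excess. With enough counts to be tested between the cell types were Hoxb6, at 7.66 CPM in MEF-D and 3.85 to 4.47 CPM in the other MEF libraries, and Hoxd1, at 5.01 CPM in MEF-C and 1.14 to 1.53 CPM in the others. The remaining 5 genes had at most 15 counts in any MEF library. Hoxa13 stood at 1.53 CPM in MEF-D and 0 to 0.137 CPM in the others. Hoxb13 stood at 0.981 CPM in MEF-C and 0.0874 to 0.153 CPM in the others. Hoxd12 was at 1.31 CPM in MEF-A, Hoxd13 at 0.109 CPM (1 count) in MEF-C, and Hoxd9 was low in MEF-A, at 0.350 CPM.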

How the results depend on the processing

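Alternatives were no scaling beyond library size, DESeq2 or its size factors in edgeR, no filter beyond 1 count, at least 10 counts in every library of a cell type, a test against a fold change of 2, and leaving out each library. Of 338 values of single Hox genes under them, 319 kept their direction and their side of the threshold, 19 lost the call and 0 reversed. Settings in which a gene was not tested are not among these values. Hoxb8, Hoxd3 and Hoxd10 were tested in 9 of the 13 alternatives and Hoxb5 in 12. The count of Hox genes lower in mESCs stayed within 1.5 times its value of 24 under all of them. The count of Hox genes higher in mESCs (1, Hoxc13) was 2 with no filter beyond 1 count (Hoxb13 and Hoxc13), 0 against a fold change of 2, and 0 to 2 when a library was left out. It was 0 without mESC-B, where edgeR gave Hoxc13 an adjusted p of 0.0542, and 2 without mESC-C. Against a fold change of 2, 3991 of all genes differed. A floor of 10 counts left 6 Hox genes above it in every mESC library, compared with 15 at 3 counts. TMM-scaled library sizes raised the summed Hoxb CPM in MEFs from 72.0 to 78.2. Bands of paralogs 1 to 3, 4 to 9 and 10 to 13 took 6.86, 64.9 and 28.3% of the MEF Hox counts, by their construction, and 27.4, 44.7 and 27.9% in mESCs. The higher share of the 5′ band in MEFs was thus lost. No paired analysis was possible because the count columns carry numbers that no source ties to the numbered samples. At 6528643 to 11441278 counts per library, 12 Hox genes were too low to be tested.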
